A study of Mus musculus with 18 samples.

Results

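AP-1 factors and immediate early genes, 10 in all, were followed in MC38 cells, a line from a mouse colon adenocarcinoma of the C57BL6 strain. They were Fos, Fosb, Fosl1, Fosl2, Jun, Junb, Jund, Atf3, Egr1 and Ier3, taken by gene symbol. All 10 of the 10 genes were found among the 39179 genes of the deposited files, and all 10 passed the filter on low counts that left 15006 tested genes. RNA was sequenced in 18 libraries, 3 in each of 6 groups. The groups were APC-deleted cells untreated, after 24 h and after 48 h of 1 µM doxycycline, and APC-intact cells untreated, after 24 h and after 48 h of the same dose. APC is a tumour suppressor that limits beta-catenin, and doxycycline switched on a hairpin that targets Tdo2, a dioxygenase of tryptophan breakdown, in a study of TDO2 loss in cells with and without APC. The titles of treated libraries name the hairpin and those of untreated libraries do not, while the protocol speaks of hairpin cells with and without doxycycline, which leaves unclear if the untreated cells carried it. All treated groups had the hairpin, and its effect cannot be told apart from that of doxycycline itself. No untreated group is labelled with 24 or 48 h, so time in culture cannot be told apart from the treatment. The labels do not say whether the APC-deleted line is 1 clone, so the deletion and other differences between the lines cannot be told apart either. The 3 libraries of a group are labelled biological triplicates, with no word on separate cultures, so the p-values rest on a spread that may be technical.

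AP-1 is a dimer of basic leucine zipper proteins, formed by a JUN family member (JUN, JUNB, JUND) with another JUN, a FOS family member (FOS, FOSB, FOSL1, FOSL2) or an ATF protein. Unlike FOS proteins, JUN proteins can pair among themselves, and JUNB is the weaker activator of the family in many settings. Fos, Fosb, Jun, Junb, Atf3, Egr1 and Ier3 are classical immediate early genes, transcribed within minutes of growth-factor, cytokine or stress signals through kinases such as ERK, JNK and p38, and most fall back quickly. Fosl1 and Fosl2 are induced later and are held up in many transformed cells with sustained ERK signalling. EGR1 is a zinc-finger factor of the same early wave, and IER3 is a small protein tied to NF-kB, ERK signalling and survival under stress.

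Counts assigned to genes ran from 71970499 to 111948430 per library. Tdo2 had between 6 and 29 counts in any library and was not called between treated and untreated cells in either line, so at this depth it does not check the induction. Apc averaged 74.7, 82.3 and 82.9 CPM (counts scaled to a common library total) in untreated, 24 h and 48 h APC-deleted cells, against 112, 128 and 141 CPM in APC-intact cells. Apc RNA was thus lower but still present in the APC-deleted line, so these counts do not by themselves check the deletion. Markers of colon epithelium were nearly absent: Cdx2 was at 0 in every library, Epcam reached at most 0.0114 CPM, and the 9 markers summed to between 3.10 and 7.15 CPM. Of 6 mesenchymal markers 5 were abundant, with 1601 to 2385 CPM of Vim, whereas 5 haematopoietic markers summed to at most 0.0930 CPM and 4 endothelial markers to at most 5.96 CPM. Reads in no annotated gene took a mean of 4.81, 5.43 and 5.67% of the total in untreated, 24 h and 48 h APC-deleted libraries, against 5.56, 6.21 and 6.59% in APC-intact ones. The deposited file names carry 2 run designations: both untreated groups and APC-intact 24 h are in the first, and APC-deleted 24 h and both 48 h groups in the second. That reading is an inference from the names. The untreated lines, the lines at 48 h, 24 h in APC-intact cells and 48 h against 24 h in APC-deleted cells were therefore compared within a run, and other pairs of groups across runs.

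The cells expressed the late FOS members and Junb far above Fos itself. Levels per length are given as the deposited RPKM (reads scaled for exon length and for the library's total), the scale on which genes can be set against each other. In untreated cells Ier3 had 97.8 ± 6.16 RPKM in the APC-deleted line and 112 ± 1.38 RPKM in the APC-intact line (SD, n = 3 each, as for all values of this kind). Junb had 90.9 ± 2.35 RPKM in untreated APC-deleted cells and 68.4 ± 2.14 RPKM in untreated APC-intact cells. Fos had 0.222 ± 0.0165 RPKM in the APC-deleted line and 0.297 ± 0.0435 RPKM in the APC-intact line, the lowest of the 10 in every group. From the highest down, the order was Ier3 or Junb, then Fosl1, Jund, Fosl2, Jun and Atf3, then Fosb and Egr1, then Fos. Ier3 led in the 3 APC-intact groups and in untreated APC-deleted cells, and Junb led at 24 and 48 h in APC-deleted cells, though at 24 h its libraries (92.8 to 116 RPKM) overlapped those of Ier3 (91.7 to 102 RPKM). Jun and Fosl2 overlapped in untreated APC-deleted cells (14.6 to 17.9 RPKM for Jun, 16.9 to 17.7 RPKM for Fosl2) and in APC-intact cells at 24 h. Fosb stood above Egr1 in every APC-deleted group and below it in every APC-intact group, with means of 2.44 and 1.50 RPKM in untreated APC-deleted cells and of 1.65 and 1.94 RPKM in untreated APC-intact cells. Fosb and Egr1 overlapped in APC-intact cells at 48 h. The ranking depends on the exon lengths in the files. For Jund the deposited gene model starts at chr8:70697739, upstream of the GENCODE start at 70698949, and Jund is listed with 2877 bases. The deposited spans of Fosb, Fosl1, Fosl2, Junb and Atf3 also differ from those of GENCODE.

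**Figure D1:**
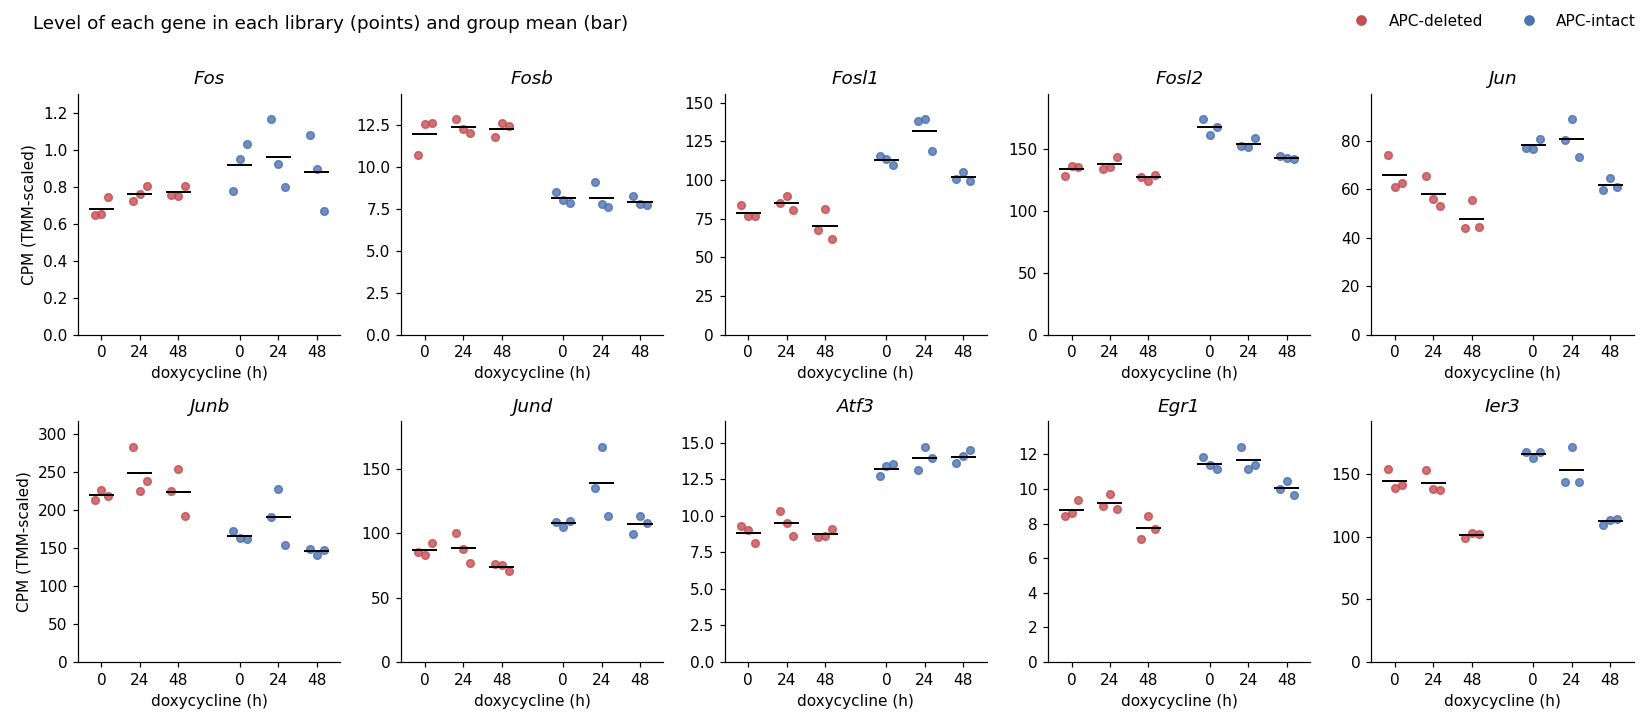
CPM after TMM scaling (vertical axis of each panel, from 0) of the 10 genes in each of the 18 libraries (points) with the group mean (bar), at 0, 24 and 48 h of doxycycline; APC-deleted cells are red and on the left of each panel, APC-intact cells blue and on the right. Fosb and Junb stand higher in the APC-deleted groups by their means and Fosl1, Atf3 and Egr1 lower, and Ier3 lies between 99.0 and 114 CPM in every 48 h library.

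Untreated APC-deleted cells had more Fosb and Junb and less Fosl1, Fosl2, Jund, Atf3, Egr1 and Ier3 RNA than untreated APC-intact cells. In all 8 of the 10 were called at an adjusted p under 0.05 (2 higher, 6 lower), where 27.3% of the 15006 tested genes were called, 13.4% higher and 13.8% lower. The 10 had a median log2 fold change of -0.32, against 0.00 for all tested genes (-0.00444). Within a gene, levels are given as CPM after TMM scaling. Differences are log2 fold changes ± SE, with the SE derived from the F statistic of edgeR's quasi-likelihood test. P-values are from that test, adjusted by Benjamini and Hochberg over all tested genes.

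Among the FOS members, Fosb, a FOS protein that activates strongly in its full-length form, went the opposite way from the late members. Fosb had 10.8, 12.6 and 12.6 CPM in the 3 untreated APC-deleted libraries, against 8.51, 8.07 and 7.85 CPM in the APC-intact ones. No APC-deleted library reached down to an APC-intact one, and the log2 fold change was 0.56 ± 0.08 (adjusted p = 1.59e-05). Fosl1, which encodes FRA-1, a factor of invasive and mesenchymal tumour cells, had 83.6, 76.8 and 76.6 CPM in APC-deleted libraries, against 116, 114 and 109.6 CPM in APC-intact libraries. It was lower in all 3 APC-deleted libraries, with a log2 fold change of -0.52 ± 0.08 (adjusted p = 5.61e-05). Fosl2, which encodes FRA-2, had 128, 136 and 136 CPM in APC-deleted libraries, against 174, 162 and 168 CPM in APC-intact libraries. This was a smaller change without overlap, of -0.33 ± 0.05 (adjusted p = 1.35e-05). Fos had 0.647, 0.654 and 0.743 CPM in APC-deleted libraries, against 0.775, 0.951 and 1.03 CPM in APC-intact libraries. These rest on 60 to 67 and on 71 to 100 counts per library. The groups did not overlap, yet with a log2 fold change of -0.43 ± 0.20 Fos was not called (adjusted p = 0.121).

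Among the JUN members, Junb was higher in the APC-deleted line and Jund lower. Junb had 213, 226 and 218 CPM in untreated APC-deleted libraries, against 173, 163 and 162 CPM in APC-intact ones, a log2 fold change of 0.40 ± 0.12 (adjusted p = 0.0165) without overlap. Jund, the member expressed steadily in most resting cells, had 85.4, 82.7 and 92.1 CPM in APC-deleted libraries, against 109, 105 and 109 CPM in APC-intact libraries. Its log2 fold change was -0.31 ± 0.11 (adjusted p = 0.0405). Jun had 74.1, 61.1 and 62.6 CPM in APC-deleted libraries, against 77.1, 76.5 and 80.8 CPM in APC-intact libraries. The groups did not overlap, and at -0.24 ± 0.10 Jun was not called (adjusted p = 0.0665). BC042782 overlaps Jun on the opposite strand and the use of strand is not given in the sources used here, so the value of Jun is uncertain, although BC042782 had 661 counts over all libraries against 108597 for Jun.

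The remaining 3 genes were lower in the APC-deleted line. Atf3, a stress-induced factor that pairs with JUN proteins and often represses, had 9.30, 9.03 and 8.12 CPM in untreated APC-deleted libraries, against 12.7, 13.4 and 13.5 CPM in APC-intact ones. Its log2 fold change of -0.58 ± 0.07 was the furthest below 0 of the 10 (adjusted p = 5.08e-06). Egr1 had 8.46, 8.60 and 9.35 CPM in APC-deleted libraries, against 11.9, 11.4 and 11.2 CPM in APC-intact libraries, a log2 fold change of -0.38 ± 0.07 (adjusted p = 0.000590). Of the 10 genes only Egr1 lies on chromosome 18, which also carries Apc, and a local effect of the deletion was not tested. Ier3 had 154, 139 and 141 CPM in APC-deleted libraries, against 167, 163 and 168 CPM in APC-intact libraries, and differed by -0.20 ± 0.06 (adjusted p = 0.0225). The calls of Fosb, Fosl1, Fosl2, Atf3 and Egr1 held under every alternative processing tried. That of Jund was lost without any 1 of the 6 libraries (adjusted p 0.0519 to 0.171) and without the filter on low counts (0.157), that of Junb without APC-intact replicate 2 or 3 or APC-deleted replicate 2 (0.0556 to 0.0635), and that of Ier3 without APC-intact replicate 1 or 3 or APC-deleted replicate 2 or 3 (0.0765 to 0.149). Without APC-deleted replicate 1 Jun was called (adjusted p = 0.0286), and under an alternative of another kind its adjusted p fell to 0.000928.

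Most of these genes also differed between the treated lines. At 24 h of doxycycline 8 of the 10 were called, with Fosb and Junb higher and Fosl1, Fosl2, Jun, Jund, Atf3 and Egr1 lower in APC-deleted cells, where 31.2% of tested genes were called, 16% higher and 15.1% lower. At 48 h the same 8 genes were called in the same directions, where 34.7% of tested genes were called, 17.8% higher and 16.8% lower. The 48 h groups lie in the same run and the 24 h groups do not. In the main fit Fos and Ier3 were called at neither time. Fos differed by -0.33 ± 0.20 at 24 h and -0.19 ± 0.20 at 48 h (adjusted p 0.234 and 0.494). Ier3 differed by -0.10 ± 0.06 and -0.15 ± 0.06 (adjusted p 0.240 and 0.0755). Over the alternatives the lowest adjusted p of Ier3 was 0.00269 at either time, which is a call.

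Fosb had 12.9, 12.3 and 12.1 CPM in APC-deleted cells at 24 h and 11.8, 12.7 and 12.4 CPM at 48 h, against 9.10, 7.81 and 7.64 CPM and 8.28, 7.80 and 7.76 CPM in APC-intact cells at those times. All 9 APC-deleted libraries thus lay above all 9 APC-intact libraries, and the log2 fold changes were 0.60 ± 0.08 and 0.63 ± 0.08 (adjusted p 5.99e-06 and 3.03e-06). Atf3 likewise had 8.12 to 10.3 CPM over the 9 APC-deleted libraries and 12.7 to 14.7 CPM over the 9 APC-intact ones, with -0.55 ± 0.07 at 24 h and -0.68 ± 0.07 at 48 h (adjusted p 8.23e-06 and 5.71e-07). Fosl1 had 85.4, 89.7 and 80.5 CPM at 24 h in APC-deleted cells, against 138, 139 and 119 CPM in APC-intact cells. At 48 h it had 67.4, 81.5 and 62.0 CPM in APC-deleted cells, against 100.6, 105 and 99.4 CPM in APC-intact cells. The 2 log2 fold changes were -0.63 ± 0.08 and -0.53 ± 0.08 (adjusted p 4.33e-06 and 3.20e-05).

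Junb had 283, 225 and 238 CPM in APC-deleted cells at 24 h, against 190.1, 227 and 154 CPM in APC-intact cells. The groups overlapped at APC-intact replicate 2, and the log2 fold change of 0.38 ± 0.12 (adjusted p = 0.0179) was not called without APC-intact replicate 1 or 3 or APC-deleted replicate 1 (0.24 to 0.38, adjusted p 0.0520 to 0.123), nor without the filter on low counts or with only the groups compared (adjusted p 0.0559 and 0.107). At 48 h Junb had 225, 254 and 192 CPM in APC-deleted cells, against 149, 141 and 147 CPM in APC-intact cells. There the groups were apart, at 0.62 ± 0.12 (adjusted p = 0.000531), a call that held under every alternative. Jund had 75.7, 75.1 and 71.0 CPM in APC-deleted cells at 48 h, against 99.6, 113 and 108 CPM in APC-intact cells, a log2 fold change of -0.53 ± 0.11 (adjusted p = 0.000871). At 24 h Jund differed by -0.65 ± 0.11 (adjusted p = 0.000156). Jun differed by -0.47 ± 0.10 at 24 h and -0.37 ± 0.10 at 48 h (adjusted p 0.000910 and 0.00573). Egr1 differed by -0.34 ± 0.07 and -0.37 ± 0.07, and Fosl2 by -0.17 ± 0.05 at both times, a call lost at 24 h without the filter on low counts (adjusted p = 0.0502).

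**Figure D2:**
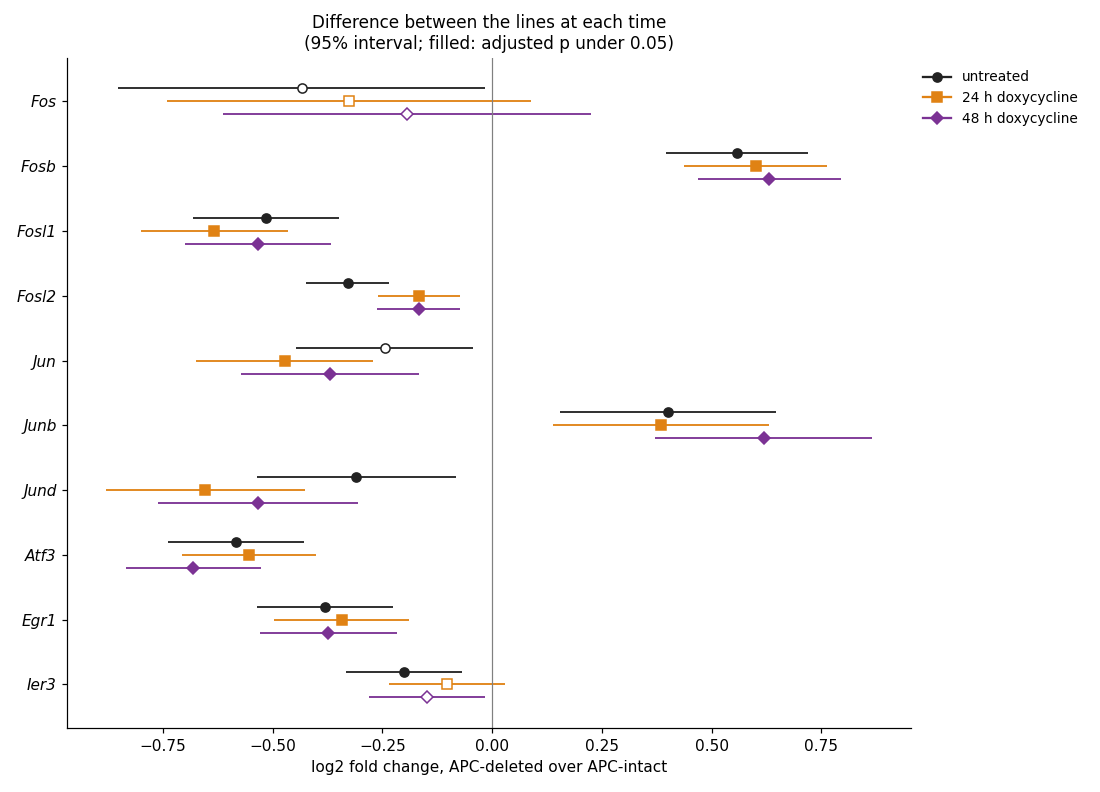
Log2 fold change of APC-deleted over APC-intact cells (horizontal axis) for each gene, untreated (circles), at 24 h (squares) and at 48 h (diamonds) of doxycycline, with 95% intervals; filled symbols have an adjusted p under 0.05. Fosb and Junb lie right of 0 at all 3 times and the other 8 genes left of it.

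Because Junb and Fosb were the members higher in the APC-deleted line, their promoters are shown. Each is the 250 bases before the RefSeq start in build GRCm38.p6, read 5′ to 3′ on the gene's strand. Capitals mark matches to 6 motifs searched on both strands: TGACTCA (the AP-1 site), TGACGTCA (the CRE), the CArG box bound by SRF, GCGGGGGCG (an EGR site), CTTTGAT (a TCF site) and the NF-kB site.
Fosb (chr7:19310046-19310295, minus strand): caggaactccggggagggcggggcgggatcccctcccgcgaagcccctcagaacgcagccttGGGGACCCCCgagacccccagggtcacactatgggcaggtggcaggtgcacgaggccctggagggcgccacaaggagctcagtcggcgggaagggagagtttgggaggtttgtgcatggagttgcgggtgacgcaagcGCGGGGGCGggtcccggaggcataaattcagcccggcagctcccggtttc
Junb (chr8:84978749-84978998, minus strand): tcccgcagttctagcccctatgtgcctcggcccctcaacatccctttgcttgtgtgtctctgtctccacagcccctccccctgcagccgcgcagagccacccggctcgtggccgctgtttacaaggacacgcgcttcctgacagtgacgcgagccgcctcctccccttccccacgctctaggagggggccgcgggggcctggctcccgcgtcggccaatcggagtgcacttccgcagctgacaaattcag
In Fosb the capitals are an NF-kB match at -188 to -179 from the start and an EGR match at -50 to -42, while the Junb window held no match. Of the 10 genes 8 were in the promoter table, and Fosl1 and Egr1 were not. None of the 8 held TGACTCA, TGACGTCA, the CArG box or CTTTGAT, which were in 4.46, 1.55, 1.47 and 3.21% of all 32851 promoter windows. GCGGGGGCG was in Fosb and Fosl2 and in 2.57% of all windows. The NF-kB site, a partly palindromic motif whose matches on the 2 strands can overlap, was in Fos, Fosb, Fosl2 and Ier3 and in 7.25% of all windows. A match is a run of letters and not a measured binding site. Sites outside the 250 bases were not searched, so a window without a match does not show that the gene lacks the site. The Jund window ends at chr8:70697738, upstream of the GENCODE start at 70698949.

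The make-up of the families differed between the lines with these changes. Junb made up 70.1 ± 1.74, 73.4 ± 1.56 and 74.8 ± 1.56% of the summed RPKM of the JUN family in untreated, 24 h and 48 h APC-deleted cells, against 59.3 ± 1.03, 58.4 ± 0.954 and 58.3 ± 2.07% in APC-intact cells. The lowest APC-deleted library had 68.6% and the highest APC-intact library 60.3%. The ratio of Junb to Jun on that scale was 5.81 ± 0.749, 7.40 ± 0.415 and 8.11 ± 0.716 in untreated, 24 h and 48 h APC-deleted cells, against 3.68 ± 0.204, 4.06 ± 0.401 and 4.09 ± 0.290 in APC-intact cells. Fosl1 made up 61.8 to 64.8% of the FOS family by group mean in APC-deleted cells and 68.0 to 72.7% in APC-intact cells. Fosb made up 4.41, 4.29 and 4.95% in APC-deleted cells, against 2.23, 2.05 and 2.45% in APC-intact cells. These shares describe RNA, were given no test, and follow from the same counts as the tests above. Like the ranking, they depend on the exon lengths in the files, those of Jund and Junb among them.

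**Figure D3:**
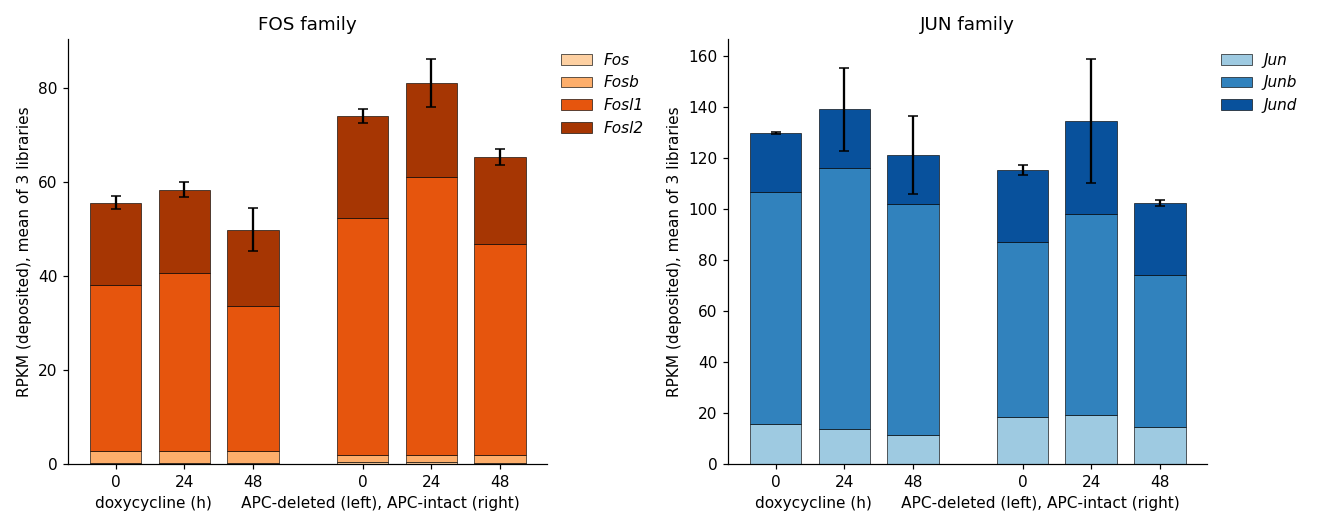
Stacked deposited RPKM (vertical axis, mean of 3 libraries) of the FOS family (left panel) and the JUN family (right panel) at 0, 24 and 48 h of doxycycline, with APC-deleted cells on the left and APC-intact cells on the right of each panel; error bars are the SD of the summed RPKM. Junb is the widest JUN band in all 6 groups and Fosl1 the widest FOS band, and Fos is too thin to see.

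With doxycycline Ier3 fell by 48 h in both lines, a call that held under every alternative processing tried, and the number of other genes called depended on the processing. At 24 h none was called by edgeR in APC-deleted cells, where 5.85% of tested genes were called (0 at an unadjusted p under 0.05, 0 by DESeq2), and none in APC-intact cells, where 5.64% were called (3 at an unadjusted p under 0.05, 1 by DESeq2). At 48 h Jun and Ier3 were called lower in APC-deleted cells, 2 of 10 where 11% of tested genes were called and 6.49% called lower. In APC-intact cells Fosl2, Jun and Ier3 were called lower at 48 h, 3 of 10 where 11.3% were called and 7.54% called lower. Over the alternatives 1 to 4 of the 10 were called at 48 h in APC-deleted cells, the 4 without 48 h replicate 2, and 1 to 6 in APC-intact cells, the 6 with only the groups compared and the 1 with run as a term. 

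Ier3 had 154, 139 and 141 CPM in untreated APC-deleted cells, 153, 138 and 137 CPM at 24 h, and 99.0, 103 and 102 CPM at 48 h. In APC-intact cells it had 167, 163 and 168 CPM untreated, 144, 172 and 144 CPM at 24 h, and 109.5, 114 and 114 CPM at 48 h. Every 48 h library lay below every untreated and every 24 h library of its line. Against untreated cells the log2 fold change at 48 h was -0.51 ± 0.06 in APC-deleted cells and -0.56 ± 0.06 in APC-intact cells (adjusted p 3.33e-05 and 5.17e-06). Both comparisons cross runs, but 48 h against 24 h in APC-deleted cells, which does not, gave -0.49 ± 0.06 (adjusted p = 0.000171). The same step in APC-intact cells gave -0.45 ± 0.06 (adjusted p = 0.000536), and these 4 calls held under every alternative.

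Jun had 74.1, 61.1 and 62.6 CPM in untreated APC-deleted cells, 65.4, 56.2 and 53.2 CPM at 24 h, and 43.8, 55.5 and 44.4 CPM at 48 h. In APC-intact cells it had 77.1, 76.5 and 80.8 CPM untreated, 80.4, 88.8 and 73.3 CPM at 24 h, and 59.7, 64.9 and 61.1 CPM at 48 h. At 48 h all libraries of either line lay below the untreated ones, with log2 fold changes of -0.46 ± 0.10 in APC-deleted cells and -0.34 ± 0.10 in APC-intact cells (adjusted p 0.00450 and 0.0302). The APC-intact call was lost without any 1 of the 6 libraries (adjusted p 0.0585 to 0.128) and without the filter on low counts (0.0525), and the APC-deleted call with only the groups compared (0.0569). With run as a term Jun had a log2 fold change, shared by both lines, of -0.23 and was not called (adjusted p = 0.444). Within the second run 48 h against 24 h in APC-deleted cells gave -0.28 ± 0.10 (adjusted p = 0.325).

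Fosl2 had 174, 162 and 168 CPM in untreated APC-intact cells, 153, 152 and 159 CPM at 24 h, and 144, 143 and 142 CPM at 48 h. The 3 groups did not overlap, and the 48 h group differed from the untreated one by -0.23 ± 0.05 (adjusted p = 0.00204). With run as a term the fit gave a 48 h value shared by both lines and not one for APC-intact cells. That shared value was -0.23 and was not called (adjusted p = 0.0990). In APC-deleted cells Fosl2 differed by -0.07 ± 0.05 at 48 h (adjusted p = 0.340).

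**Figure D4:**
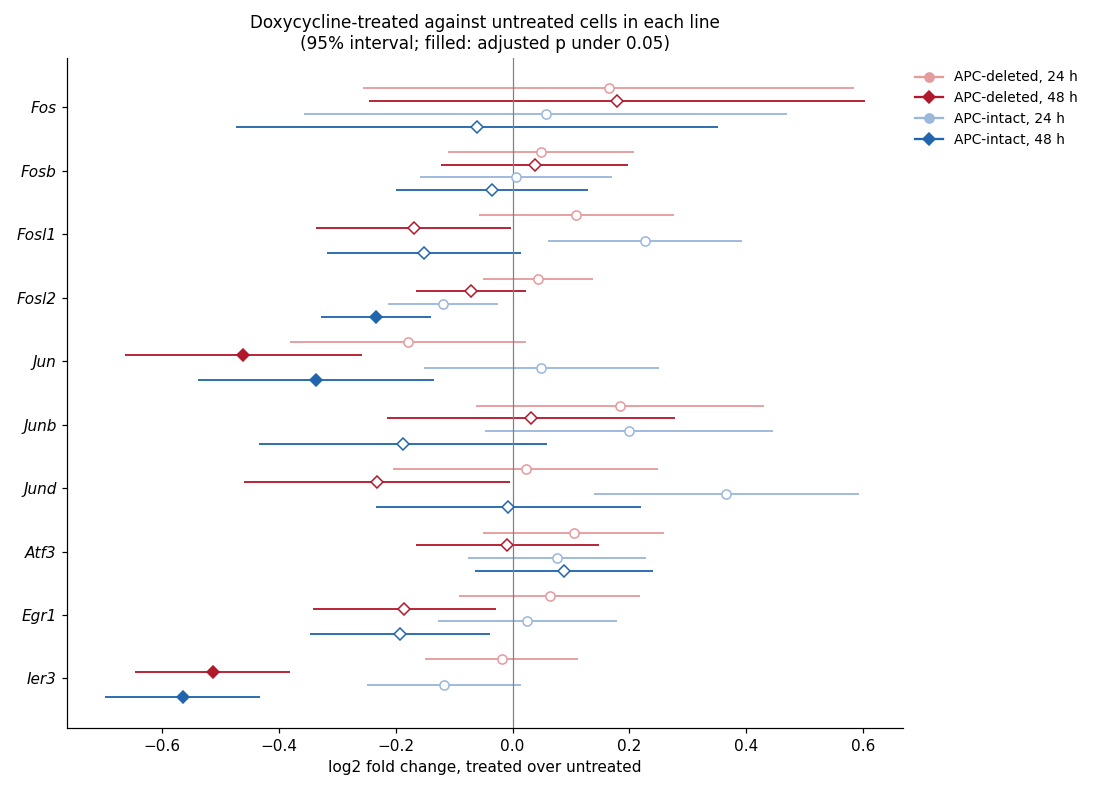
Log2 fold change of doxycycline-treated over untreated cells (horizontal axis) for each gene in APC-deleted cells (red) and APC-intact cells (blue) at 24 h (pale circles) and 48 h (dark diamonds), with 95% intervals; filled symbols have an adjusted p under 0.05. Ier3 and Jun are filled at 48 h in both lines and Fosl2 in APC-intact cells, and no gene is filled at 24 h.

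Jun and Ier3, called lower at 48 h in both lines, had these 250 bases before their RefSeq starts, with the motif matches again in capitals.
Jun (chr4:95052223-95052472, minus strand): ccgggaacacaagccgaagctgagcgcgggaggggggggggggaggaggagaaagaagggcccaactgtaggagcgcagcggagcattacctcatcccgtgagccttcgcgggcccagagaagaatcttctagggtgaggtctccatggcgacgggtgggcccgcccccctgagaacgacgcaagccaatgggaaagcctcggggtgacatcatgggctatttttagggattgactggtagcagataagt
Ier3 (chr17:35821463-35821712, plus strand): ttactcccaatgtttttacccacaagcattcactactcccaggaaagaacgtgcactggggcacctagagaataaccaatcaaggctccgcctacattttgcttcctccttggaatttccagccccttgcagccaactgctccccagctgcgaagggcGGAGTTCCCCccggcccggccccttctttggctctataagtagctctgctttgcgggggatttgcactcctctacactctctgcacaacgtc
In Ier3 the capitals are an NF-kB match at -92 to -83 on the opposite strand, and the Jun window held no match. The Ier3 start in RefSeq lies inside the gene model of the deposited files, which begins at chr17:35821684.

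Between 24 and 48 h the 10 genes had a median log2 fold change of -0.20 in APC-deleted cells and -0.30 in APC-intact cells, against 0.01 for all tested genes in each line (0.00608 and 0.00622). Ier3 was the gene called in APC-deleted cells (1 of 10, where 0.52% of tested genes were called and 0.446% called lower), and Ier3 and Fosl1 in APC-intact cells (2 of 10, where 0.74% were called and 0.646% called lower). Over the alternatives 1 to 3 were called in APC-deleted cells, the 3 without 48 h replicate 2, and 1 to 5 in APC-intact cells, where DESeq2 and the fit without 24 h replicate 3 called 5 and the fit without any 1 of the other 5 libraries called 1. Fosl1 had 100.6, 105 and 99.4 CPM at 48 h in APC-intact cells, against 138, 139 and 119 CPM at 24 h. The log2 fold change of 48 h over 24 h was -0.38 ± 0.08 (adjusted p = 0.0228). It was not called without 24 h replicate 1 or 2 or any 1 of the 48 h libraries (-0.41 to -0.34, adjusted p 0.0682 to 0.165). Nor was it with only the groups compared (adjusted p = 0.0667). With run as a term the value, shared by both lines, was -0.27 and was not called (adjusted p = 0.0896). In APC-intact cells 24 h crosses the runs with 48 h. In APC-deleted cells, within a run, Fosl1 gave -0.28 ± 0.08 (adjusted p = 0.175), and without 48 h replicate 2 it gave -0.40 (adjusted p = 0.00339).

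The APC-intact 24 h libraries were uneven, and not for these genes alone. Over all genes with enough counts, chi-square per degree of freedom between pairs of these replicates was 50, 29 and 76.9. It was 12.7, 10.4 and 27.9 in untreated APC-intact cells, and 77.6, 14.9 and 81 in APC-deleted cells at 48 h. Jund had 135, 167 and 113 CPM in APC-intact cells at 24 h, against 109, 105 and 109 CPM untreated. This was a log2 fold change of 0.37 ± 0.11 that edgeR did not call (adjusted p = 0.0555) and DESeq2 did (adjusted p = 0.0117). Without 24 h replicate 3 it was 0.51 (adjusted p = 0.00445). Junb had 190.1, 227 and 154 CPM at 24 h, against 173, 163 and 162 CPM untreated, with 0.20 ± 0.12 (adjusted p = 0.371). Replicate 2 was the highest of the 3 for 6 of the 10 genes, Junb, Jund, Jun and Ier3 among them. That count was not made over all genes. Replicate 2 also had the lowest share of reads outside annotated genes, 5.59% of the total in a group that reached 6.59%. The part of that share in the spread was not tested.

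The response to doxycycline was not shown to differ between the lines for any of the 10. The difference of the responses (APC-deleted minus APC-intact) was called for 0 of 10 at 24 h by edgeR, where 0.00666% of tested genes were called (2 at an unadjusted p under 0.05, 0 by DESeq2). At 48 h it was called for 0 of 10, where 0.0267% were called (1 at an unadjusted p under 0.05, 0 by DESeq2). For Ier3 at 48 h the difference was 0.05 ± 0.09, with a 95% interval of -0.14 to 0.24, and for Jun it was -0.12 ± 0.14, with an interval of -0.41 to 0.16. The interval of Jund at 24 h, -0.66 to -0.02, and those of Fosl2 at both times, 0.03 to 0.30 each, lay on 1 side of 0, although none was called (adjusted p 1.00 for both genes at 24 h and 0.627 for Fosl2 at 48 h). The run cancels in the 48 h difference and not in the 24 h one.

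Other genes around AP-1 were read from lists that do not hold the 10. The alternatives were read gene by gene for the 10 only, so the dependence of single list genes on processing is not known. Comparisons of 48 h with untreated cells cross the runs for the lists too. With run as a term 347 of all tested genes were called at 48 h, against 1653 and 1703 in APC-deleted and APC-intact cells in the main fit. Of 35 other immediate early genes, 8 were higher and 8 lower in untreated APC-deleted cells than in untreated APC-intact cells, where 13.4% of all tested genes were higher and 13.8% lower. At 48 h 15 were higher and 7 lower, where 17.8% and 16.8% of all tested genes were. Klf4, a zinc-finger factor of differentiation, had 100.4 ± 6.64 CPM in untreated APC-deleted cells, against 150.5 ± 0.875 CPM in APC-intact cells, a log2 fold change of -0.58 ± 0.05 (adjusted p = 4.26e-08). Gem, which encodes a small GTP-binding protein, had 0.0214 ± 0.0102 CPM in APC-deleted cells and 2.11 ± 0.229 CPM in APC-intact cells. Plk2, a polo-like kinase, had 617 ± 24.3 CPM in APC-deleted cells at 48 h, against 462 ± 11.2 CPM in APC-intact cells (0.42 ± 0.05, adjusted p = 1.37e-06).

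With doxycycline, 2 of the 35 were higher and 5 lower at 48 h in APC-deleted cells (median log2 fold change -0.09), and 1 was higher and 9 lower in APC-intact cells (median -0.14). Over all tested genes 11% were called at 48 h in APC-deleted cells (6.49% lower) and 11.3% in APC-intact cells (7.54% lower). At 24 h 4 were higher and 1 lower in APC-deleted cells, where 5.85% of all tested genes were called, and 1 was higher and 3 lower in APC-intact cells, where 5.64% were. Cyr61, a secreted matrix protein also called CCN1, had 373 ± 31.9 CPM at 48 h in APC-deleted cells, against 484 ± 39.0 CPM untreated (-0.38 ± 0.07, adjusted p = 0.00194). In APC-intact cells it had 337 ± 9.17 CPM at 48 h, against 546 ± 23.5 CPM untreated (-0.70 ± 0.07). Nfkbiz, an atypical inhibitor of NF-kB, had 80.1 ± 4.93 CPM at 48 h in APC-deleted cells, against 117 ± 2.56 CPM at 24 h, and 66.3 ± 1.81 CPM at 48 h in APC-intact cells, against 104.8 ± 6.11 CPM at 24 h. Its fall from the earlier time was called in both lines (-0.55 ± 0.05 and -0.66 ± 0.05). Nfkbiz and Plk2 were the 2 list genes called between 24 and 48 h in either line.

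Of 20 genes known as AP-1 targets, 1 rose and 13 fell at 48 h in APC-deleted cells (median log2 fold change -0.25), and 1 rose and 14 fell at 48 h in APC-intact cells (median -0.23), against a median of 0.00 over all tested genes (-0.00114 and 0.000496), of which 6.49% fell in APC-deleted cells and 7.54% in APC-intact cells. At 24 h 0 rose and 6 fell in APC-deleted cells, where 5.85% of all tested genes were called in either direction, and 1 rose and 10 fell in APC-intact cells, where 5.64% were. Of these comparisons with untreated cells, only 24 h in APC-intact cells lies within a run. Mmp13, a collagenase, had 3.91 ± 0.512 CPM at 48 h in APC-deleted cells, against 7.40 ± 0.173 CPM untreated, and 1.40 ± 0.375 CPM at 48 h in APC-intact cells, against 3.52 ± 0.286 CPM untreated. Lif, a cytokine of the IL6 family, and Hmox1, heme oxygenase 1, were also called lower at 48 h in both lines, Lif by -0.36 ± 0.05 and -0.67 ± 0.05 and Hmox1 by -0.43 ± 0.06 and -0.42 ± 0.06 in APC-deleted and APC-intact cells. Vim is in this list and among the mesenchymal markers, which summed to 3916 to 4167 CPM at 48 h in APC-deleted cells, against 4335 to 4599 CPM untreated, and to 3610 to 3626 CPM at 48 h in APC-intact cells, against 4095 to 4272 CPM untreated. The part of that shift in the list's change was not tested, and fewer cells of a kind cannot be told apart from less RNA per cell in these libraries.

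Between the untreated lines 7 of the 20 targets were higher and 4 lower in APC-deleted cells, where 13.4% of all tested genes were higher and 13.8% lower. Mmp10, a stromelysin, had 8.83 ± 1.35 CPM in APC-deleted cells, against 2.39 ± 0.354 CPM in APC-intact cells (1.88 ± 0.14). Timp1, an inhibitor of matrix metalloproteinases, had 39.7 ± 1.45 CPM in untreated APC-deleted cells, against 55.4 ± 1.50 CPM in APC-intact cells. At 24 h Timp1 had 37.1 ± 1.38 CPM in APC-deleted cells and 79.6 ± 3.52 CPM in APC-intact cells. It was the target whose response was called as different between the lines at both times, by -0.62 ± 0.08 at 24 h and -0.49 ± 0.08 at 48 h (adjusted p 0.00370 and 0.0361). The 48 h call was lost with only the groups compared, where 0 genes were called. The run does not cancel in the 24 h difference.

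Regulators of the pathway were read against the same shares of all tested genes, 27.3% called between the untreated lines, and at 48 h 11% in the APC-deleted and 11.3% in the APC-intact line. Of 13 genes of ERK feedback, 2 were higher and 4 lower between the untreated lines, and 0 rose and 4 fell at 48 h in APC-deleted cells, and 1 rose and 2 fell at 48 h in APC-intact cells. Errfi1, an inhibitor of the EGF receptor family, had 67.9 ± 2.96 CPM at 48 h in APC-deleted cells, against 97.2 ± 2.91 CPM untreated (-0.52 ± 0.05), and 96.9 ± 1.87 CPM at 48 h in APC-intact cells, against 115 ± 0.904 CPM untreated (-0.25 ± 0.05). Spry4, another inhibitor of receptor signalling, was called higher at 48 h in APC-intact cells (0.20 ± 0.05). Of 17 kinases and factors upstream of AP-1, 2 were higher and 2 lower between the untreated lines, and 1 rose and 1 fell at 48 h in each, counts near those shares. Elk3, an ETS factor that acts with SRF, had 41.0 ± 3.28 CPM in untreated APC-deleted cells, against 53.1 ± 1.75 CPM in APC-intact cells, and Map2k6, a kinase of p38, had 26.5 ± 0.438 CPM, against 19.4 ± 0.516 CPM.

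Of 8 tested partners from the BATF, MAF and related families, 0 were higher and 3 lower between the untreated lines, where 27.3% of all tested genes were called. Batf had 0 counts in the 3 untreated APC-deleted libraries, which allows up to 0.0417 CPM at the lowest depth of any library, and 1.05 ± 0.0671 CPM in untreated APC-intact cells. Maf rose at 48 h in both lines, to 2.40 ± 0.431 CPM in APC-deleted cells, against 1.50 ± 0.189 CPM untreated, and to 1.96 ± 0.197 CPM in APC-intact cells, against 1.17 ± 0.172 CPM untreated. Of 8 tested heat shock genes, 0 were higher and 2 lower between the untreated lines, and 0 rose and 1 fell at 48 h in APC-deleted cells, where 11% of all tested genes were called. Of 9 genes of the integrated stress response, which can induce Atf3, 0 were higher and 3 lower between the untreated lines, and the counts of both lists lie near the 27.3% of all tested genes called there. Ppp1r15a, whose product restores translation after that response, rose to 178 CPM at 24 h in APC-deleted cells, against 131 CPM untreated (0.44 ± 0.06), and to 187 CPM at 24 h in APC-intact cells, against 154 CPM untreated (0.28 ± 0.06). Of the 9 integrated stress response genes, 1 was called higher and 0 lower at 24 h in each line. Over all tested genes 5.85% were called at 24 h in APC-deleted cells and 5.64% in APC-intact cells. Atf3 itself differed by 0.10 ± 0.07 and 0.08 ± 0.07 at that time (adjusted p 0.475 and 0.614).

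Genes with the most similar pattern were sought for the 4 members whose 6 group means had an SD of at least 0.3 on the log2 scale, Fosb, Fosl1, Jund and Atf3. Likeness was the root mean square difference of centred group means of log2 CPM over the 6 groups, among genes of at least 5 CPM. Closest to Fosb were Smc1a at 0.0186 and Cstf2 at 0.0277, and closest to Atf3 were Naip2 at 0.0344 and Nlrc5 at 0.0401. Closest to Fosl1 were Slc41a2 at 0.0696 and Arid5a at 0.0739. Closest to Jund were Zfp319 at 0.0632 and Ier2, another immediate early gene, at 0.0671. With 6 points each, such likeness is a description and many genes that differ between the lines share it.

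In the mm10 coordinates of the files, Fos lies at chr12:85473890-85477273, Fosb at chr7:19302721-19310045, Fosl1 at chr19:5447703-5455945 and Fosl2 at chr5:32136472-32157831. Jun lies at chr4:95049034-95052222, Junb at chr8:84976909-84978748 and Jund at chr8:70697739-70700616. Atf3 lies at chr1:191170296-191183340, Egr1 at chr18:34859823-34864984 and Ier3 at chr17:35821684-35822923. The files give 1 count per gene, so isoforms such as the short form of Fosb cannot be told apart from the full-length one.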

How the data were processed

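Whole-number counts per gene were deposited by the authors for each of 18 libraries; STAR and HTSeq on build mm10 are named in the submitters' processing notes, with versions, annotation release and use of strand not given in the sources used here. The authors also deposited RPKM, which equal the count per kilobase of the file's exon length and the library's total over all entries, and which were used for levels between genes. Rows without a gene (22.9 to 25.5% of a library's total) entered neither library sizes nor tests. The 10 genes and 11 gene lists were chosen with earlier results of these data known.

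The test was edgeR 4.0.16's quasi-likelihood test in R 4.3.3 (filterByExpr, TMM, a coefficient for each group, all 18 libraries, robust glmQLFit), with Benjamini-Hochberg adjustment over 15006 genes and a threshold of 0.05, in 11 comparisons. The common biological coefficient of variation was 8.33%. CPM used gene counts and TMM factors. Each SE was derived as the absolute log2 fold change over the square root of the F statistic. Intervals are 95%, were built from that SE with a t quantile, and cover the spread between these libraries. Depth was 71970499 to 111948430 gene counts per library, and replicates differed by more than sampling noise. All 10 genes were named, with up to 4 genes per list and comparison of smallest adjusted p, of which the text gives a part. Alternatives were DESeq2 1.42.0, median-of-ratios factors within edgeR, every gene with a count, a replicate block, only the groups compared, run as a term without an interaction, and leaving out each library in turn. With run as a term, both lines share the effect of each time, and all times share the difference between the lines. Same-numbered libraries of APC-intact cells at 24 and 48 h deviated together (every correlation over 0.1), and no other of the 15 pairs of groups met that. The steps were tried on simulated data for 48 h against untreated APC-deleted cells only, with the same spread for every gene. That is a simpler setting than the fit of all 18 libraries. Figures used Python 3.11.15 and matplotlib 3.10.9.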

Additional observations from a re-analysis of the deposited data

Results flagged for a closer look

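Timp1, which encodes an inhibitor of matrix metalloproteinases and is no member of the 10, responded to doxycycline differently in the 2 lines by a test of the difference itself. The difference of the log2 fold changes (APC-deleted minus APC-intact) was -0.62 at 24 h and -0.49 at 48 h (edgeR, adjusted p 0.00370 and 0.0361). The call at 48 h was lost under some alternatives. Leaving out each library in turn, 0 to 3 genes were called for that difference, and 0 with only the groups compared. The run does not cancel in the 24 h difference.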

How the results depend on the processing

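Of 110 pairs of a gene and a comparison 32 were called, 23 of them under every alternative in the same direction, and no called pair turned sign. A further 16 were called under some alternative, and of 62 never called 29 turned sign somewhere. Junb at 48 h in APC-intact cells was not called, and with run as a term its 48 h value, shared by both lines, was 0.0472. Genes called by DESeq2 were 1388 at 24 h in APC-deleted cells, 191 and 238 between 24 and 48 h in APC-deleted and APC-intact cells, and 5 and 57 for the differences between lines at 24 and 48 h. DESeq2 called 1 of the 10 at 24 h in APC-intact cells and 5 between 24 and 48 h there. With only the groups compared, genes called were 2473 at 24 h and 433 at 48 h in APC-deleted cells, 258 and 4367 in APC-intact cells, 22 and 49 between the times in those lines, and 0 for the difference at 48 h. Of the 10, 1 was then called at 48 h in APC-deleted cells, 6 at 48 h in APC-intact cells and 1 between the times there. With run as a term, genes called were 6601 between the lines, 347 at 48 h in either line and 134 between the times, with 1 of the 10 at 48 h and 1 between the times. Without the filter 14 genes were called for the difference at 48 h. The replicate block changed 1 call: Fosl1 at 24 h in APC-intact cells gained one (0.22, adjusted p = 0.0428), so 1 of the 10 was called there. The cause of these shifts was not tested.

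Leaving out each library in turn, 5 to 8 of the 10 were called between the untreated lines, 2 to 4 at 48 h in APC-deleted cells, 0 to 2 and 2 in APC-intact cells at 24 and 48 h, and 1 to 3 and 1 to 5 between the times in APC-deleted and APC-intact cells. Genes called ran from 428 to 533 at 24 h and 882 to 2816 at 48 h in APC-deleted cells, 364 to 1259 and 822 to 1409 in APC-intact cells at 24 and 48 h, 47 to 193 and 64 to 442 between the times, 1 to 2 and 0 to 3 for the differences. Between 24 and 48 h in APC-intact cells without 24 h replicate 3, Jun, Junb and Jund were called (-0.47, -0.54 and -0.52). Without APC-deleted 48 h replicate 2, Fosl1 and Egr1 were called at 48 h against untreated (-0.30 and -0.26).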

Other observations

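Further values stood out in the tables. Ier3 without APC-intact 24 h replicate 2 was called lower at 24 h in APC-intact cells (-0.21, adjusted p = 0.0246), where with it the value was -0.12 (adjusted p = 0.322). In APC-deleted cells 24 h replicate 1 was the highest of its group for 6 of the 10 genes, and 48 h replicate 2 for 6. Such counts were not made over all genes. Ier2, which was not chosen with the 10, had 20.3, 21.0 and 18.4 CPM by group mean in untreated, 24 h and 48 h APC-deleted cells, against 25.0, 29.4 and 25.1 CPM in APC-intact cells.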
